A study of Mus musculus with 238 samples.

Results

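The hypothalamus was compared with the rest of the brain within single control mice, across all genes. For each control mouse the log2 counts per 1000000 counts (log2 CPM) of its hypothalamus library was set against the mean log2 CPM of its other brain regions, and the differences were tested over mice. Choroid plexus and liver libraries were left out. Of the 238 libraries of the series, 7 were control hypothalamus libraries and 85 were the other regions of the same 7 mice. The other regions were 13 in number: motor, visual and entorhinal cortex, anterior and posterior hippocampus, caudate putamen, olfactory bulb, subventricular zone (SVZ), corpus callosum, thalamus, pons, medulla and cerebellum.

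All mice were C57BL/6JN, an inbred laboratory strain, aged 19 months. The 4 AL mice (numbers 63, 66, 68 and 69) were females fed ad libitum, the controls of a dietary restriction experiment. The 3 PBS mice (72, 80 and 84) were males given retro-orbital injections of phosphate-buffered saline, the controls of a young plasma experiment. Sex and experiment therefore cannot be told apart. The treated mice, used only at the end, were 4 females under dietary restriction (aDR) and 3 males injected with young mouse plasma (YMP). A further PBS mouse and a further aDR mouse had no hypothalamus library and were left out. Mouse 68 had 11 other regions and mouse 72 had 9, while the other mice had 13, and 8 regions were held by all 7 mice.

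The hypothalamus lies below the thalamus and is built of many small nuclei, each with its own neuron types. Magnocellular neurons of the paraventricular and supraoptic nuclei make oxytocin and vasopressin, arcuate neurons weigh energy stores and reproduction, and lateral neurons make orexin and melanin-concentrating hormone. It sends hormones to the pituitary and governs feeding, body temperature, sleep, stress and reproduction. In homogenised tissue, fewer cells of a type and less RNA per cell cannot be told apart.

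Library totals were 5339154 to 23783592 counts (median 6451308) in the hypothalamus and 1957388 to 32410417 (median 9324359) in the other regions. AL 66 (21873553) and PBS 72 (23783592) were the deepest hypothalamus libraries. Mitochondrial genes took 1.65 to 2.31% of counts in hypothalamus libraries and 1.70 to 3.60% elsewhere. None of the 9 pairs of hypothalamus libraries from the same cohort was a duplicate.

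The 7 hypothalamus libraries differed in genes that mark single nuclei. PBS 72 held 4 counts of the orexin gene Hcrt (0.162 CPM) and 1.46 CPM of Pmch, both among the most abundant peptide genes of the other 6 libraries. The same library held 118 CPM of Lhx6 and 71.0 CPM of Lhx8, transcription factor genes that did not exceed 19.0 and 10.2 CPM in the others. AL 63 and AL 66 had the lowest Oxt (41.2 and 50.2 CPM) and Avp (15.4 and 19.7 CPM), together with 7.11 and 5.89 CPM of Lmx1a, a factor gene of the posterior hypothalamus, which was at most 0.176 CPM in the other 5. AL 68 and PBS 72 had the lowest Pomc (5.36 and 2.43 CPM). The part of these differences in the results was not tested. Values without single mice are given for some of the genes that varied most. Among the other regions, the cerebellum library of AL 63 held the highest non-hypothalamic Pmch (13.5 CPM), Hcrt (3.36 CPM) and Oxt (2.58 CPM).

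**Figure D1:**
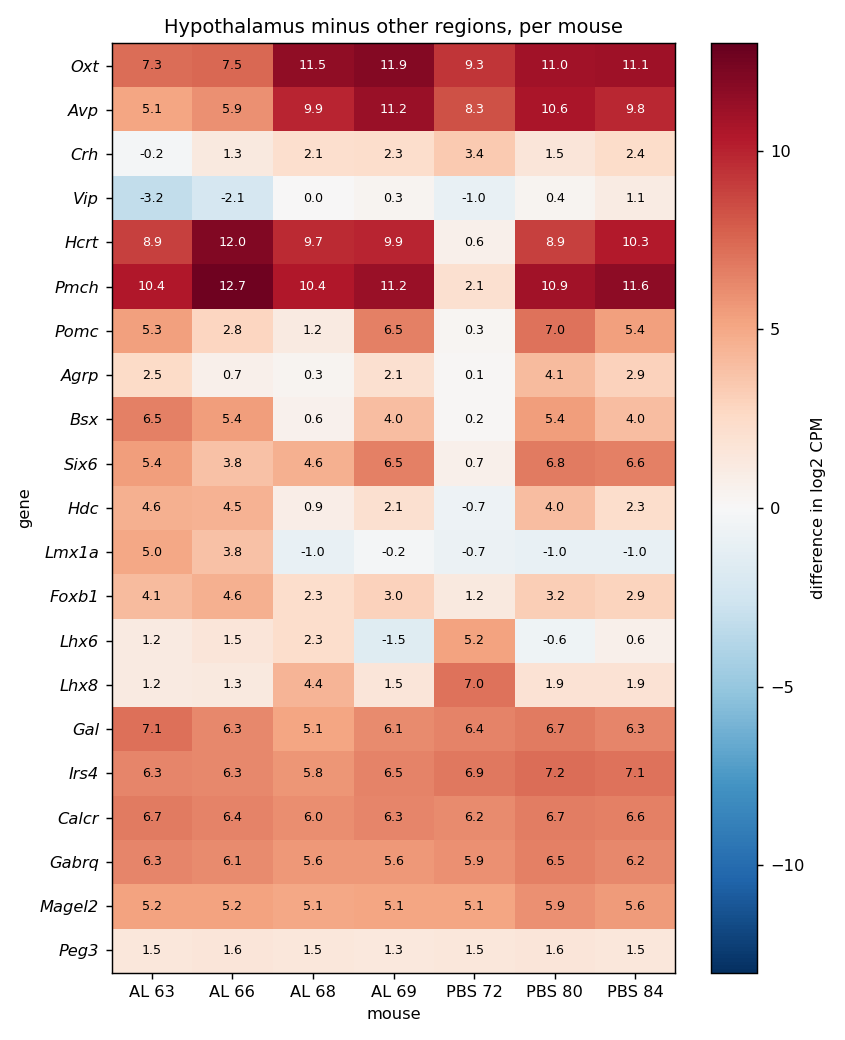
Difference in log2 CPM between hypothalamus and the mean of the other regions, printed in each cell, for 21 genes (vertical axis) in 7 control mice (horizontal axis); red is higher in the hypothalamus and blue lower. Many peptide and nucleus-restricted genes change from mouse to mouse (Hcrt from 0.62 in PBS 72 to 12.04 in AL 66), whereas the peptide gene Gal and Irs4, Calcr, Gabrq, Magel2 and Peg3 vary less.

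The genes with the largest differences include 4 peptide genes whose promoters are shown because they carry the strongest regional contrast in the data. Each sequence is the 250 bases ahead of a transcript start, from RefSeq on GRCm38.p6, written 5′ to 3′ on the strand of the gene, with capitals marking matches to the motifs searched.
Oxt (chr2:130575919-130576168, + strand): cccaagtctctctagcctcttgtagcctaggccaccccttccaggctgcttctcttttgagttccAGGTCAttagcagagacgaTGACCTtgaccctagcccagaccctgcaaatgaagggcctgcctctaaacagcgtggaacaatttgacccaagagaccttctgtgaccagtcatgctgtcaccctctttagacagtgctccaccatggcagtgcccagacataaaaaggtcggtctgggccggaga
Avp (chr2:130582589-130582838, - strand): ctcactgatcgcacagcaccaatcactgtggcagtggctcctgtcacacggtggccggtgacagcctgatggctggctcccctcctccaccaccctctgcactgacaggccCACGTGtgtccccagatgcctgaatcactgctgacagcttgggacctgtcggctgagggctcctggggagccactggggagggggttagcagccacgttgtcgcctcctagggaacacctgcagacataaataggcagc
Hcrt (chr11:100762932-100763181, - strand): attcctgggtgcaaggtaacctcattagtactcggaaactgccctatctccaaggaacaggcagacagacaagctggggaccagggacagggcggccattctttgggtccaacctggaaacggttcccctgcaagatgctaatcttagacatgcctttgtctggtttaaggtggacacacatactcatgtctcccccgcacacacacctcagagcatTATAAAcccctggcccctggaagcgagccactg
Pmch (chr10:88090822-88091071, + strand): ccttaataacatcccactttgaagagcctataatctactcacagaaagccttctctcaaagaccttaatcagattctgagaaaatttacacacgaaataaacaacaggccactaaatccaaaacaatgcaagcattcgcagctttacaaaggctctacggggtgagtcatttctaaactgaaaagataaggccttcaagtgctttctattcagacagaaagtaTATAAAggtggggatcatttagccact
The motifs, each searched on both strands, included TATAAA, known as a TATA box, and AGGTCA, the half-site of many nuclear receptors. The others were the E-box CACGTG and the cyclic AMP response element TGACGTCA. Capitals in Hcrt and Pmch mark TATAAA, those in Oxt mark AGGTCA on either strand, and those in Avp mark CACGTG. Of all 32851 promoter windows of this length, 12.4% held TATAAA, 14% AGGTCA, 6.02% CACGTG and 1.55% TGACGTCA. Of 16 hypothalamic peptide genes with an entry, 4 held TATAAA, 5 AGGTCA, 1 CACGTG and 2 (Cartpt and Sst) TGACGTCA. A match is a description of these letters only.

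The hypothalamus stood apart over much of the transcriptome. Of 15157 genes tested, 9468 were called (62.5%; limma, Benjamini-Hochberg adjusted p below 0.05), 4649 of them higher (30.7%) and 4819 lower (31.8%). With plain library totals in place of trimmed-mean (TMM) scaling the calls split into 5936 higher and 3675 lower. At a difference of at least 4-fold, 296 genes were called higher and 96 lower. In 7389 of the called genes the sign was the same in all 7 mice. The hypothalamus exceeded every other region of the same mouse, in all 7 mice, for 316 genes (2.08% of those tested), and lay below every other region in all 7 for 113 (0.746%). Here and below, every other region means those with a library, which were 9 in PBS 72 and 11 in AL 68. Among regions, the thalamus was nearest to the hypothalamus, with a median absolute difference of 0.29 on the log2 scale, followed by SVZ (0.30) and anterior hippocampus (0.31), and the olfactory bulb was farthest (0.47) with the cerebellum next (0.45).

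Neurosecretory hormones were far higher, and all 6 tested members of their list were called higher (30.7% of all genes), with a median difference of 5.52 on the log2 scale. Members almost absent elsewhere, such as Oxt and Ghrh, passed the filter on low counts only through the hypothalamus libraries. They could not have been called lower, so the count of calls is partly set by the filter. The same holds for such members of the lists below. Oxt encodes oxytocin and Avp vasopressin, which magnocellular neurons release into the blood of the posterior pituitary. The genes lie next to each other on chromosome 2, Oxt at chr2:130574519-130577054 and Avp at chr2:130580620-130582588 (RefSeq, GRCm38). Oxt was at 41.2, 50.2, 757 and 1066 CPM in AL 63, 66, 68 and 69 and at 162, 487 and 505 CPM in PBS 72, 80 and 84. The mean over other regions was 0.103 CPM, and every hypothalamus value lay far above it although the lowest and highest mice differed widely. The within-mouse difference was 9.92 ± 0.57 (log2 CPM, mean ± SE, n = 7; limma adjusted p = 6.43e-08). Avp was at 15.4, 19.7, 398 and 897 CPM in AL 63, 66, 68 and 69 and at 117, 553 and 305 CPM in PBS 72, 80 and 84. AL 63 and AL 66 were again the lowest, and the mean of other regions was 0.344 CPM. Its difference was 8.70 ± 0.68 (limma adjusted p = 7.90e-07), and without AL 63 it was 9.33. With limma's default variance trend, over the mean difference, Oxt was not called (limma adjusted p = 0.0509).

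The releasing hormones, which reach the anterior pituitary, were also higher. Trh, the thyrotropin-releasing hormone gene, was at 60.5, 67.9, 230.4 and 175 CPM in AL 63, 66, 68 and 69 and at 92.1, 127 and 114 CPM in PBS 72, 80 and 84. The olfactory bulb (90.4 ± 9.69 CPM, mean ± SD, n = 7) came close to it, and the hypothalamus was the highest region in 4 of 7 mice. The difference from the mean of all other regions was 6.17 ± 0.24 (limma adjusted p = 3.73e-09). Ghrh, for growth hormone-releasing hormone, was lower in level but nearly absent elsewhere: 12.5, 7.89, 6.01 and 11.1 CPM in AL 63, 66, 68 and 69 and at 2.72, 12.5 and 7.79 CPM in PBS 72, 80 and 84, against 0.105 CPM in the other regions (difference 4.87 ± 0.29, limma adjusted p = 8.11e-08). Crh, the stress-axis releasing hormone, was at 1.86, 9.66 and 21.0 CPM (3 levels with no mouse named are the lowest, median and highest hypothalamus library), higher in 6 of 7 mice (difference 1.83 ± 0.33, limma adjusted p = 5.82e-04). The medulla held more Crh on average, 45.7 ± 60.6 CPM. Sst, somatostatin, was only 1.31 ± 0.16 higher (limma adjusted p = 3.63e-05), and entorhinal cortex held more of it. Gnrh1, the reproductive releasing hormone, did not pass the filter on low counts: it was at 0.133, 1.14 and 5.84 CPM.

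**Figure D2:**
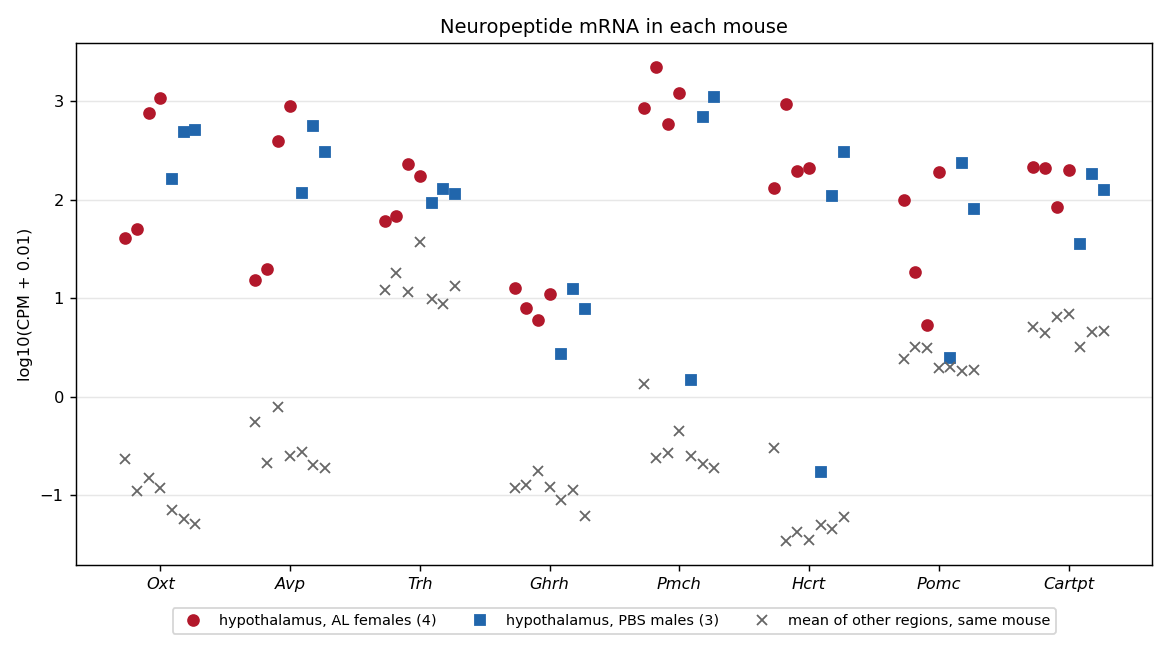
Level of 8 peptide genes as log10(CPM + 0.01) in the hypothalamus of each control mouse (red circles, AL females; blue squares, PBS males; mice 63, 66, 68, 69, 72, 80 and 84 from left to right within a gene) and the mean CPM of the same mouse's other regions on the same scale (grey crosses). Oxt, Avp and Ghrh lie above the crosses in every mouse, whereas Hcrt, Pmch and Pomc fall near them in PBS 72.

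Lateral hypothalamic peptides had a median difference of 6.30, but only 2 of the 5 tested genes exceeded every other region in all 7 mice (2.08% of all genes). Their list summed to 182 to 3376 CPM in hypothalamus libraries and averaged 138 CPM in the caudate putamen. Hcrt and Pmch were near the level of other regions in PBS 72. Hcrt (chr11:100761693-100762931) encodes the orexins, peptides of wakefulness, and was at 132, 945, 194 and 208 CPM in AL 63, 66, 68 and 69 and at 0.162, 108 and 304 CPM in PBS 72, 80 and 84. Its highest level, in AL 66, stood well above the other mice, and PBS 72 was near the level of other regions (0.0714 CPM). The difference was 8.61 ± 1.05 (limma adjusted p = 2.83e-05). Leaving out PBS 72 gave 9.84 and leaving out AL 66 gave 8.02. Pmch, for melanin-concentrating hormone, which promotes feeding and sleep, was at 849, 2215, 582 and 1212 CPM in AL 63, 66, 68 and 69 and at 1.46, 691 and 1104 CPM in PBS 72, 80 and 84. PBS 72 again stood far below the others. The difference was 9.90 ± 1.0 (limma adjusted p = 6.35e-06), and 11.14 without PBS 72. With limma's default variance trend Pmch was not called (limma adjusted p = 0.0544). Parpbp, a gene otherwise known for DNA repair, ranked beside them at 8.27 ± 0.87, or 9.36 without PBS 72. Parpbp (chr10:88091398-88146969) and Pmch (chr10:88091072-88092374) share 977 bases in RefSeq, and unstranded counts cannot separate their reads there. Gal (galanin) was steadier, at 133, 96.9, 91.7 and 103 CPM in AL 63, 66, 68 and 69 and at 107, 148 and 70.4 CPM in PBS 72, 80 and 84, above every other region in all 7 mice (difference 6.30 ± 0.21, limma adjusted p = 1.04e-09). Nts (neurotensin, 3.25 ± 0.40) and Pdyn (prodynorphin, 2.72 ± 0.26) completed the 5 tested members of the lateral list, all called higher (30.7% of all genes).

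Of the 6 arcuate peptide genes, 5 were called higher and 1 lower, beside 30.7% and 31.8% of all genes. Pomc, the gene of the melanocortin precursor that restrains feeding, was at 98.6, 18.3, 5.36 and 190.5 CPM in AL 63, 66, 68 and 69 and at 2.43, 237 and 79.9 CPM in PBS 72, 80 and 84. PBS 72 was at the level of the other regions (2.32 CPM), AL 68 just above it, and AL 69 and PBS 80 highest. Its difference was 4.07 ± 0.75 (limma adjusted p = 6.23e-04), and 4.69 without PBS 72. Agrp, whose product opposes melanocortin signalling, was at 1.13, 4.76 and 19.1 CPM, with AL 68, AL 66 and PBS 72 lowest (difference 1.82 ± 0.44, limma adjusted p = 0.0037). Cartpt, expressed in arcuate and other hypothalamic neurons, was at 213, 207, 83.9 and 202 CPM in AL 63, 66, 68 and 69 and at 35.2, 180.1 and 126 CPM in PBS 72, 80 and 84, the highest region in all 7 mice (difference 5.32 ± 0.26, limma adjusted p = 1.69e-08). Tac2, neurokinin B, was 4.04 ± 0.18 higher and also exceeded every region in all 7 mice. Kiss1, kisspeptin, was called at 2.05 ± 0.35, but its levels were low (0.325, 0.865 and 4.23 CPM) and it overlaps Golt1a. Npy, which arcuate neurons share with cortical, striatal and olfactory interneurons, was at 6.34, 27.1 and 77.8 CPM against 72.4 CPM in the other regions. Its difference of -0.93 ± 0.37 passed narrowly (limma adjusted p = 0.0484) and did not pass when AL 63, 66, 68, 69 or PBS 72 was left out in turn, nor under plain totals or DESeq2 size factors. Against the thalamus alone Npy was higher by 1.59 (limma adjusted p = 0.00324).

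In the list of other hypothalamic peptides, 9 of 15 tested were called higher and 2 lower, where 30.7% of all genes were called higher and 31.8% lower. Adcyap1, for the peptide PACAP, was at 15.9, 66.3 and 96.4 CPM and the highest region in 6 of 7 mice (difference 3.13 ± 0.25, limma adjusted p = 1.0e-06). Scg2, a granin of secretory vesicles, was abundant, 819, 1027 and 1348 CPM, and above every other region in all 7 mice (difference 1.75 ± 0.08). Cck, cholecystokinin of cortical and thalamic neurons, was lower by a difference of -2.84 ± 0.24 (limma adjusted p = 1.69e-06). Penk, enkephalin, did not pass the test (0.29 ± 0.14, limma adjusted p = 0.102), with AL 63 alone negative at -0.83. It was called higher without AL 63 (0.48, limma adjusted p = 1.2e-05) and with plain library totals (0.38, limma adjusted p = 0.033). The caudate putamen held 3319.9 ± 556 CPM of it. Npvf and Ucn3 did not pass the filter on low counts, with Npvf at 0 counts in PBS 72 and 2.11 to 17.4 CPM in the other 6, and Ucn3 at 0.677, 6.85 and 11.6 CPM.

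Receptors and effectors of energy balance were mostly higher: 16 of 23 were called higher (30.7% of all genes), 1 lower and 6 were not called. Calcr, the calcitonin receptor that also binds amylin, was at 36.9, 43.6, 56.2 and 36.5 CPM in AL 63, 66, 68 and 69 and at 30.6, 48.7 and 49.6 CPM in PBS 72, 80 and 84, and the highest other region, the medulla, reached 2.96 ± 0.794 CPM. Every hypothalamus value exceeded all other regions of the same mouse (difference 6.42 ± 0.17, limma adjusted p = 2.49e-10). Irs4, an insulin receptor substrate encoded on the X chromosome, was at 62.7, 49.7, 51.4 and 43.7 CPM in AL 63, 66, 68 and 69 and at 55.0, 63.7 and 84.2 CPM in PBS 72, 80 and 84, with the pons next at 9.03 ± 6.66 CPM (difference 6.58 ± 0.21, limma adjusted p = 7.43e-10). Asb4 (4.84 ± 0.28), Brs3 (4.82 ± 0.24), an orphan bombesin-like receptor gene, and Gpr101 (4.59 ± 0.11) likewise exceeded every other region in all 7 mice. The melanocortin receptor genes Mc3r (3.87 ± 0.21) and Mc4r (1.94 ± 0.19) were called higher, as were those of ghrelin (Ghsr, 2.98 ± 0.31), growth hormone (Ghr, 1.09 ± 0.10), GLP-1 (Glp1r, 2.80 ± 0.17) and orexin (Hcrtr1, 2.57 ± 0.17; Hcrtr2, 2.16 ± 0.15). Mc3r was not called against the thalamus (0.08, limma adjusted p = 0.742). Npy2r (2.75 ± 0.18) and Npy1r (0.45 ± 0.10) were called higher, and the call of Npy1r was lost when cerebellum and olfactory bulb were left out. Lepr, the leptin receptor gene, was low in the whole tissue (1.13, 3.70 and 5.93 CPM) and was not called (0.28 ± 0.31, limma adjusted p = 0.463), although it was called at 0.61 without PBS 72. Ramp3, a partner of the calcitonin receptor, was lower (-1.10 ± 0.34), and the thalamus held 176 ± 43.5 CPM.

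Of 11 tested genes of the reproductive axis, 10 were called higher, against 30.7% of all genes. Esr1, estrogen receptor alpha, was at 19.5, 14.8, 31.9 and 19.2 CPM in AL 63, 66, 68 and 69 and at 20.9, 22.4 and 23.9 CPM in PBS 72, 80 and 84. Females and males overlapped, and both exceeded every other region in all 7 mice (difference 3.16 ± 0.14, limma adjusted p = 1.03e-08). Prlr, the prolactin receptor gene, was 3.46 ± 0.17 higher, but the SVZ held 94.0 ± 81.4 CPM, more than the 57.4 CPM of the hypothalamus. Tacr3 (2.60 ± 0.17), Avpr1a (3.32 ± 0.18), Oxtr (1.42 ± 0.13) and Esr2 (2.06 ± 0.22) were called higher, and Pgr (0.39 ± 0.06), the progesterone receptor gene, by less. Srd5a1, a steroid reductase gene, was the 1 member called lower. Without cerebellum and olfactory bulb Pgr was 0.13 higher and no longer called. No gene of this list was called different between the AL and PBS cohorts. That test called 0% of all 15157 genes, so the count does not set this list apart.

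Of the thyroid and stress list, 8 of 13 were called lower and 2 higher (6 and 4 with plain library totals), beside 31.8% and 30.7% of all genes. Against the thalamus alone the balance was different, with 7 of 12 tested called higher and 4 lower, where 27.5% and 30.8% of all genes were. Dio2, the deiodinase that makes active thyroid hormone and a known tanycyte gene, was at 4.40, 2.79, 0.650 and 2.82 CPM in AL 63, 66, 68 and 69 and at 1.82, 2.81 and 4.04 CPM in PBS 72, 80 and 84. It was the lowest of all regions in all 7 mice, against 27.8 CPM elsewhere (difference -3.31 ± 0.22, limma adjusted p = 2.26e-07). Slco1c1 (-0.83 ± 0.04), a thyroxine transporter gene of brain endothelium and astrocytes, Crym (-1.57 ± 0.29), which binds thyroid hormone, and Hsd11b1 (-0.83 ± 0.18), which regenerates glucocorticoid, were also lower. Trhr (2.70 ± 0.16) and Crhr2 (2.38 ± 0.15), receptor genes for thyrotropin-releasing hormone and urocortins, were higher, while Crhr1 was lower (-1.30 ± 0.11).

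Transcription factors that pattern the hypothalamus were higher as a group: 29 of 35 tested were called higher (30.7% of all genes), none lower and 6 not called. Members almost absent elsewhere, such as Fezf1 and Sim1, passed the filter on low counts only through the hypothalamus libraries. Such members could not have been called lower, so these counts are partly set by the filter. The counts were the same under plain-total and DESeq2 scaling, while 28 were called higher and 2 lower without AL 63 and AL 66, and 25 higher and 1 lower in PBS mice alone. Against the thalamus 19 of 26 tested were higher and 3 lower, where 27.5% and 30.8% of all genes were. Fezf1, expressed in the ventromedial nucleus, was at 30.5, 26.8, 37.1 and 44.3 CPM in AL 63, 66, 68 and 69 and at 8.71, 50.1 and 36.5 CPM in PBS 72, 80 and 84, with 0.0545 CPM elsewhere. PBS 72 was lowest, and all mice exceeded every other region (difference 7.01 ± 0.30, limma adjusted p = 6.86e-09). Nkx2-1, which specifies the ventral hypothalamus, was at 12.8, 21.3 and 36.1 CPM, and the caudate putamen held 8.12 ± 1.62 CPM (difference 5.41 ± 0.25). Sim1 (4.83 ± 0.26) and Otp (4.27 ± 0.30) are both needed for the oxytocin and vasopressin neurons. For both, and for Oxt, AL 69 held the highest level and AL 63 the lowest. Isl1 (5.04 ± 0.18) and Six3 (4.89 ± 0.21) were also abundant in the caudate putamen, which exceeded the hypothalamus for Six3 (75.4 ± 7.22 against 38.7 CPM). Lhx9 (1.31 ± 0.21) was higher than the average region but lower than the thalamus, which held 82.6 ± 17.1 CPM (difference -4.09, limma adjusted p = 1.85e-07). Foxb1 of the mamillary area was 3.05 ± 0.35 against all regions and -0.35 against the thalamus, where it was not called (limma adjusted p = 0.298).

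Other members of that list depended on the mouse. Bsx, an arcuate and tuberal factor, was at 22.2, 13, 0.325 and 4.06 CPM in AL 63, 66, 68 and 69 and at 0.0811, 10.4 and 3.61 CPM in PBS 72, 80 and 84, with AL 68 and PBS 72 near the level of other regions (difference 3.73 ± 0.72, limma adjusted p = 8.42e-04). It was 4.24 without PBS 72 and 2.86 without AL 63 and AL 66. Six6 was 5.51 higher without PBS 72, against 4.90 ± 0.64 with it. Lhx8 was called at 2.76 ± 0.63 and was 1.97 without PBS 72. Lhx6 (1.25 ± 0.61, limma adjusted p = 0.0982) and Lmx1a (0.70 ± 0.75, limma adjusted p = 0.433) were not called by limma, while edgeR on the counts with mouse as a block called both higher. Tbx3 was called at 1.03 ± 0.33 (limma adjusted p = 0.0181) and was not called without AL 69 or without PBS 80. Nr5a1, the defining factor of the ventromedial nucleus, was removed by the filter on low counts: it was at 17.7 to 37.9 CPM in 6 mice and 0.081 CPM in PBS 72, with 0.015 CPM in the other regions. With no filter its difference was 5.98 (limma adjusted p = 4.27e-04).

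**Figure D3:**
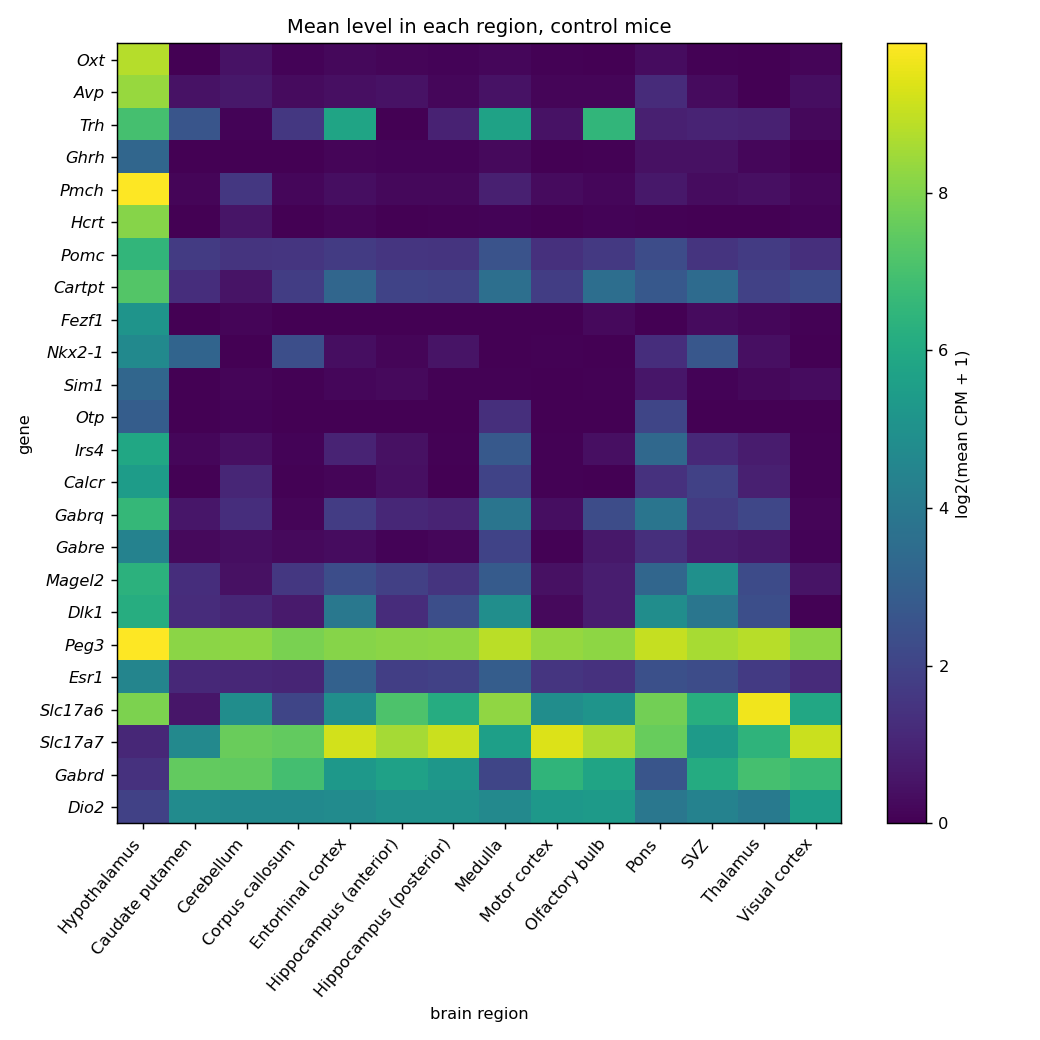
Mean level of 24 genes (vertical axis) in the hypothalamus and 13 other regions (horizontal axis) of the control mice, as log2(mean CPM + 1); brighter is higher. Oxt, Pmch, Hcrt, Fezf1 and Calcr are bright in the hypothalamus column alone, Trh also in olfactory bulb, and Slc17a7 and Gabrd are dark there and bright in cortex or striatum.

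Genes of the suprachiasmatic nucleus and the circadian clock were divided: 10 of 22 were called higher and 5 lower, where 30.7% and 31.8% of all genes were. Against the thalamus 7 of 19 tested were called higher and 11 lower, where 27.5% and 30.8% of all genes were. Peptide and marker genes of the nucleus, such as Nms (2.5 ± 0.29), Prok2 (2.20 ± 0.38), Grp (1.14 ± 0.17) and Lhx1 (2.89 ± 0.24), were called higher. Vip, which cortical interneurons also express, was at 1.19, 1.51, 10.7 and 9.17 CPM in AL 63, 66, 68 and 69 and at 3.16, 12.1 and 16.3 CPM in PBS 72, 80 and 84, with AL 63 and AL 66 lowest, and was not called (-0.64 ± 0.44, limma adjusted p = 0.222). Of the 5 called lower, 4 were clock genes, each lower in all 7 mice by a small amount: Per1 at -0.82 ± 0.10, Cry2 at -0.51 ± 0.05, Arntl (the BMAL1 gene) at -0.48 ± 0.06 and Nr1d1 at -0.41 ± 0.05, the last of which overlaps Thra. The hour of dissection is not given in the sources used here.

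Among aminergic genes, Hdc, which makes histamine in the tuberomamillary nucleus, was at 57.9, 60, 5.04 and 9.35 CPM in AL 63, 66, 68 and 69 and at 0.892, 31.3 and 12.8 CPM in PBS 72, 80 and 84. AL 63 and AL 66, the mice high in Lmx1a, were the highest (difference 2.54 ± 0.57, limma adjusted p = 0.00232). Without both of them the difference was 1.71, and without PBS 72 it was 3.06. Th, tyrosine hydroxylase of dopamine neurons, was at 25.5, 69.4 and 109 CPM (difference 3.54 ± 0.24), and the olfactory bulb held 322 ± 32.5 CPM. Ddc (2.20 ± 0.13) and the transporter genes Slc6a3 (2.67 ± 0.46) and Slc18a2 (0.82 ± 0.18) were called higher, all below the pons. Of the 7 genes in the dopamine neuron list 5 were called higher and 2 lower, beside 30.7% and 31.8% of all genes. Tph2 of serotonin neurons was lower (-1.74 ± 0.31).

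Several fast transmitter genes differed between the hypothalamus and the other regions. Slc17a7, the vesicular glutamate transporter VGLUT1 of cortical and cerebellar granule neurons, had 19, 5, 0 and 14 counts in AL 63, 66, 68 and 69 and 3, 0 and 15 in PBS 72, 80 and 84. These correspond to at most 3.22 CPM, against 291 CPM in the other regions. A count of 0 allows up to 0.487 CPM in AL 68 and 0.337 CPM in PBS 80, counting error only, since amplified reads without molecular identifiers are not independent molecules. The difference, -7.52 ± 0.45 (limma adjusted p = 8.40e-08), was the most negative of all named genes. It was not called with limma's default variance trend (limma adjusted p = 0.988). Slc17a6, the VGLUT2 gene of subcortical neurons, was at 308, 322, 234 and 233 CPM in AL 63, 66, 68 and 69 and at 157, 221 and 219 CPM in PBS 72, 80 and 84, higher than the average region (2.68 ± 0.08, limma adjusted p = 3.19e-10) and lower than the thalamus (-1.82, limma adjusted p = 8.19e-07). Of the GABA-synthesising enzymes, Gad2 was higher (1.20 ± 0.09) and Gad1 was not called (0.15 ± 0.11, limma adjusted p = 0.254; it overlaps Gad1os). PBS 72 had the highest Gad1.

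GABA-A receptor subunits differed in both directions. The theta subunit gene Gabrq was at 121, 104, 88.2 and 76.0 CPM in AL 63, 66, 68 and 69 and at 73.5, 111 and 101 CPM in PBS 72, 80 and 84, against 3.39 CPM elsewhere (difference 6.05 ± 0.15, limma adjusted p = 1.71e-10). The epsilon subunit gene Gabre was at 9.12, 16.9 and 31.1 CPM against 0.595 CPM (difference 5.21 ± 0.24). Both lie on the X chromosome, Gabre at chrX:72256926-72274828 and Gabrq at chrX:72825163-72842607, and were the highest of all regions in every mouse. Gabrg1 rose too (1.92 ± 0.06), and Gabra3 (1.03 ± 0.06) and Gabra5 (0.90 ± 0.10) by less. Gabrd, the delta subunit of extrasynaptic receptors in thalamus, striatum and granule cells, was at 2.88, 1.46, 1.46 and 1.94 CPM in AL 63, 66, 68 and 69 and at 0.730, 0.898 and 2.45 CPM in PBS 72, 80 and 84. It was 127 ± 36.4 CPM in thalamus and 182 ± 20.8 CPM in caudate putamen, and 3.25 ± 2.29 CPM in medulla. The difference was -4.84 ± 0.22 (limma adjusted p = 1.19e-08), which the default variance trend did not call (limma adjusted p = 0.147). Gabrd overlaps Cfap74. Gabrb2 was lower at -0.81 ± 0.10. Of the whole GABA list, 10 of 17 were called higher and 3 lower, beside 30.7% and 31.8% of all genes.

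Imprinted genes, of which mainly 1 parental copy is active and several of which regulate growth and feeding, were higher as a list: 31 of 44 tested were called higher, 5 lower and 8 not called, where 30.7% and 31.8% of all genes were called higher and lower, with a median difference of 0.61 against -0.013 for all genes. Like the other lists, this one was chosen with earlier results of these data known, so its shares only describe it. The summed level of its members was 16257 to 17405 CPM in the 7 hypothalamus libraries. In any of the other 85 libraries it was at most 14570.4 CPM, so the groups did not overlap. In 13 of the 44 genes the hypothalamus exceeded every other region in all 7 mice, where 2.08% of all tested genes did. Magel2 and Ndn, neighbours on chromosome 7 in the region homologous to that of Prader-Willi syndrome, were both in that set. Magel2 was at 83.5, 73.8, 80.1 and 70.9 CPM in AL 63, 66, 68 and 69 and at 48.6, 107 and 102 CPM in PBS 72, 80 and 84 (difference 5.31 ± 0.13, limma adjusted p = 1.77e-10). Ndn was at 1353, 735, 844 and 1551 CPM in AL 63, 66, 68 and 69 and at 1204, 763 and 1354 CPM in PBS 72, 80 and 84 (difference 1.89 ± 0.05, limma adjusted p = 2.25e-10). AL 66 and PBS 80 were lowest in the hypothalamus and also in the mean of the other regions, and the within-mouse differences lay between 1.71 and 2.07. Dlk1 (5.12 ± 0.13), Zim1 (3.59 ± 0.15), Peg10 (3.57 ± 0.14) and Nnat (2.55 ± 0.10) had large differences. Peg3 (1.49 ± 0.04), Usp29 (1.69 ± 0.04), Nap1l5 (1.77 ± 0.05), Grb10 (1.65 ± 0.05), Impact (1.38 ± 0.05) and Blcap (1.02 ± 0.04) had smaller ones that hardly varied, with SE of 0.04 or 0.05 on the log2 scale. Nnat and Blcap overlap, as do Nap1l5 and Herc3, and Usp29 and Zim3. Gnas (0.53 ± 0.05) and Ube3a (0.25 ± 0.04) were called higher by little, and Meg3 was not called (0.08 ± 0.07, limma adjusted p = 0.342), although it was with plain library totals (0.18, limma adjusted p = 0.0207). Igf2 (-1.24 ± 0.26) and Cdkn1c (-0.89 ± 0.16) were lower. Both are also expressed in meninges and choroid plexus. Of 11 meningeal fibroblast markers, Igf2 itself among them, 9 were called lower, beside 31.8% of all genes. Their summed level was 273 to 899 CPM in hypothalamus and 223 to 4740 CPM elsewhere. Of 12 choroid plexus markers 1 was called higher and 2 lower. The part of these cells was not tested. Calcr, Asb4 and Ddc belong to this list and to others named above.

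**Figure D4:**
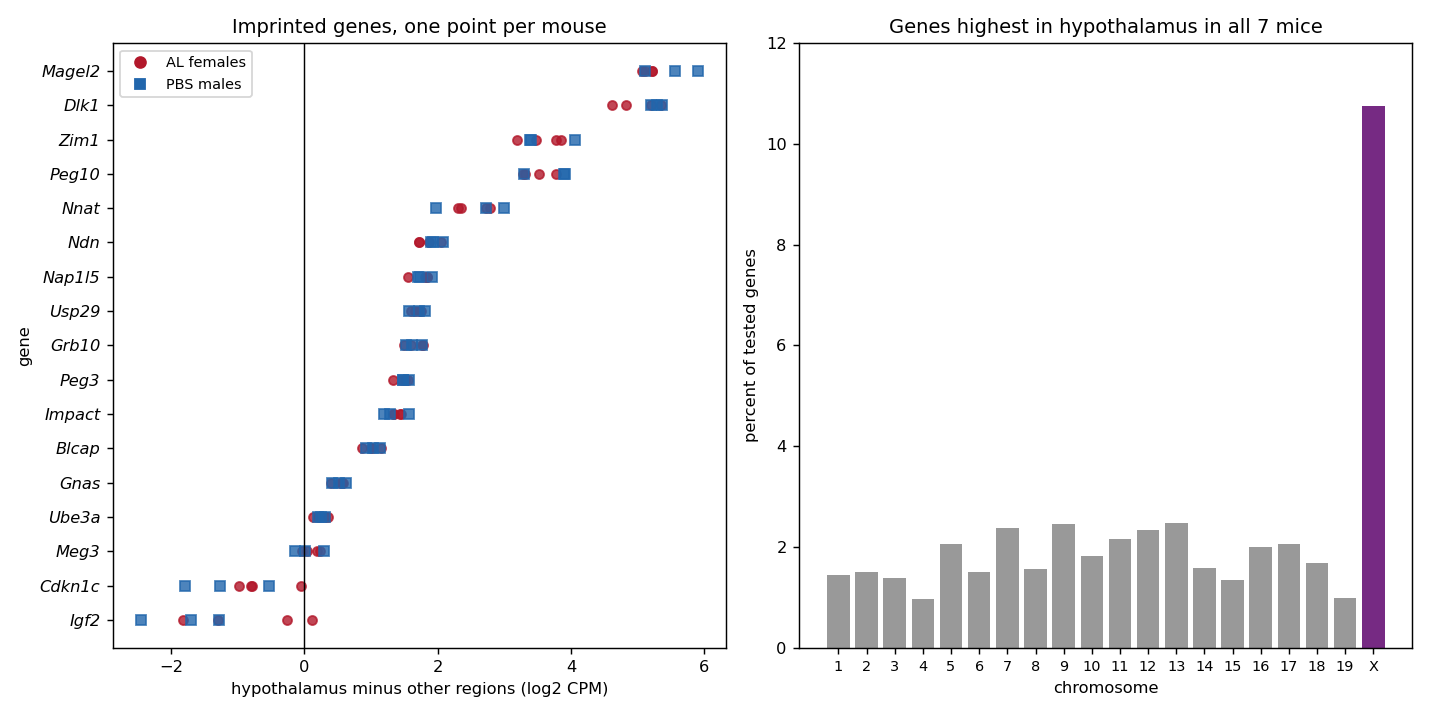
Left, difference in log2 CPM between hypothalamus and other regions for 17 imprinted genes, 1 point per mouse (red circles, AL females; blue squares, PBS males), from Magel2 at the top to Igf2 at the bottom. Right, percentage of each chromosome's tested genes whose hypothalamus level exceeded every other region in all 7 mice; the X chromosome reaches 10.8% and no autosome exceeds 2.48%.

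X-linked genes were frequent among the genes highest in the hypothalamus, a pattern looked at after the data were seen. Of the 313 such genes with a known chromosome, 57 (18.2%) lay on the X chromosome, which carried 530 of 14865 tested genes (3.57%). Of X-linked genes 10.8% were highest in all 7 mice, and among autosomes the share ran from 0.966% (chromosome 4) to 2.48% (chromosome 13). Of the 530, 239 (45.1%) were called higher and 126 (23.8%) lower, against 30.3% and 32.1% of 14331 autosomal genes. The median difference of X-linked genes was 0.124 in AL females and 0.118 in PBS males, and lay between 0.0969 and 0.195 in every mouse. With plain library totals the X chromosome held 78 of 482 genes highest in all mice (16.2%), and without PBS 72 it held 59 of 350 (16.9%). Besides Irs4, Gabrq, Gabre, Brs3 and Gpr101, this set held Arhgap36 (6.34 ± 0.21), at 76.9, 97.2 and 128 CPM, Sytl4 (6.10 ± 0.17), a granule-docking protein gene, at 45.0, 63.8 and 121 CPM, and, chosen after their values were seen, Igsf1 (4.46 ± 0.11) and Zcchc12 (2.89 ± 0.05). Several autosomal genes were as constant. Baiap3, which acts in dense-core vesicle traffic, was at 454, 398, 394 and 329 CPM in AL 63, 66, 68 and 69 and at 260.0, 405 and 493 CPM in PBS 72, 80 and 84 (difference 4.77 ± 0.08). Ngb, neuroglobin, was at 125, 154 and 184 CPM (difference 5.04 ± 0.09) and Gpx3, glutathione peroxidase 3, at 249, 441 and 535 CPM (difference 4.47 ± 0.12). These 3 were also picked after their values were seen.

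The genes lowest against other regions included several of cortical neurons. After Slc17a7 and Gabrd came Neurod2 (-4.45 ± 0.36) and Neurod6 (-3.93 ± 0.41), factors of excitatory cortical neurons, the first at 0, 0.176 and 2.88 CPM and the second at 0, 0.561 and 2.22 CPM. Adra1d (-4.0 ± 0.21), an adrenergic receptor gene, Krt12 (-3.94 ± 0.21), Rtn4rl2 (-3.79 ± 0.37), a Nogo receptor-like gene, Igfbp6 (-3.50 ± 0.26), Mas1 (-3.28 ± 0.26) and Kcnh3 (-3.22 ± 0.13) were at most 3.53 CPM in any hypothalamus library, with means of 11.8 to 70.8 CPM elsewhere. Asb11 (-3.34 ± 0.13) had at most 2 counts in any hypothalamus library, and the size of its difference depends on the prior count. Kcnh3 was not called against the thalamus (0.72, limma adjusted p = 0.114). Mas1 overlaps Airn. Of 18 markers of cortical and hippocampal glutamate neurons, 15 were called lower (31.8% of all genes) and none higher. Against the thalamus 6 of 13 tested were higher and 5 lower, where 27.5% and 30.8% of all genes were. Emx1, a cortical factor gene, was lower at -2.68 ± 0.24. Neither Emx1 nor Asb11 was called by edgeR on the counts with mouse as a block. Of 15 tested hindbrain genes 11 were called lower (31.8% of all genes) and none higher, and 2 were called lower in PBS mice alone. Their list summed to 0.529 to 2.03 CPM in hypothalamus libraries. The median of the other regions' libraries was 1.48 CPM, within that range, while the pons averaged 415 CPM.

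Of 18 astrocyte markers 9 were called higher and 4 lower, where 30.7% and 31.8% of all genes were. Against the thalamus 5 of 18 were higher and 6 lower, near the 27.5% and 30.8% of all genes. Itih3 was at 469.7, 552 and 666 CPM (difference 3.40 ± 0.06, limma adjusted p = 2.07e-11) and Agt, angiotensinogen, at 241, 375 and 429 CPM (3.17 ± 0.09, limma adjusted p = 2.92e-10), both above every other region in all 7 mice. The GABA transporter gene Slc6a11 was 1.79 ± 0.06 higher. Gfap (-0.70 ± 0.13) and the glutamate transporter gene Slc1a2 (-0.76 ± 0.05) were lower. Of 10 ependymal markers 9 were called higher (30.7% of all genes), and 1 of 10 against the thalamus (27.5% of all genes). Their sum ran from 29.6 CPM in PBS 72 and 36.0 in AL 66 to 213 CPM in PBS 80, while the SVZ, which lines a ventricle, averaged 282 CPM. Ccdc153 had 0 counts in AL 66, 0.405 CPM in PBS 72 and 7.31 to 27.5 CPM in the others (difference 3.04 ± 0.76), and Foxj1 followed the same mice (1.51 ± 0.46). Only 2 of the 10 were called in PBS mice alone. Of 15 tested tanycyte markers 4 were higher and 5 lower, shares near those of all genes (30.7% and 31.8%). Gpr50, at 42.2, 10.4, 4.88 and 13.1 CPM in AL 63, 66, 68 and 69 and at 4.50, 43.9 and 21.5 CPM in PBS 72, 80 and 84, rose by 4.90 ± 0.42, whereas Dio2 and Crym were lower. Beside 31.8% of all genes called lower, microglia markers had a median difference of -0.18 (10 of 14 called lower), endothelial and pericyte markers -0.31 (11 of 14) and myelin markers -0.26 (10 of 18, with 1 higher). With plain library totals 4 of the 14 microglia markers were called lower and 1 higher, and 8 of the 14 endothelial and pericyte markers lower. Myelin markers summed to 5681 to 13188 CPM in hypothalamus libraries, AL 66 and PBS 72 being the highest. Of 7 haemoglobin and other blood genes 6 were called lower and 1 higher. They summed to 3.85 to 15.4 CPM, against a median of 12.5 CPM and a range of 0.883 to 172 CPM in libraries of the other regions. Pituitary markers summed to 7.31 to 47.1 CPM, against a median of 10.5 CPM and a range of 4.64 to 1046 CPM in libraries of the other regions. Choroid plexus markers summed to 42.4 to 65.2 CPM, against a median of 19.7 CPM and a range of 2.5 to 20409 CPM in libraries of the other regions, and 9 of the 12 were not called.

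**Figure D5:**
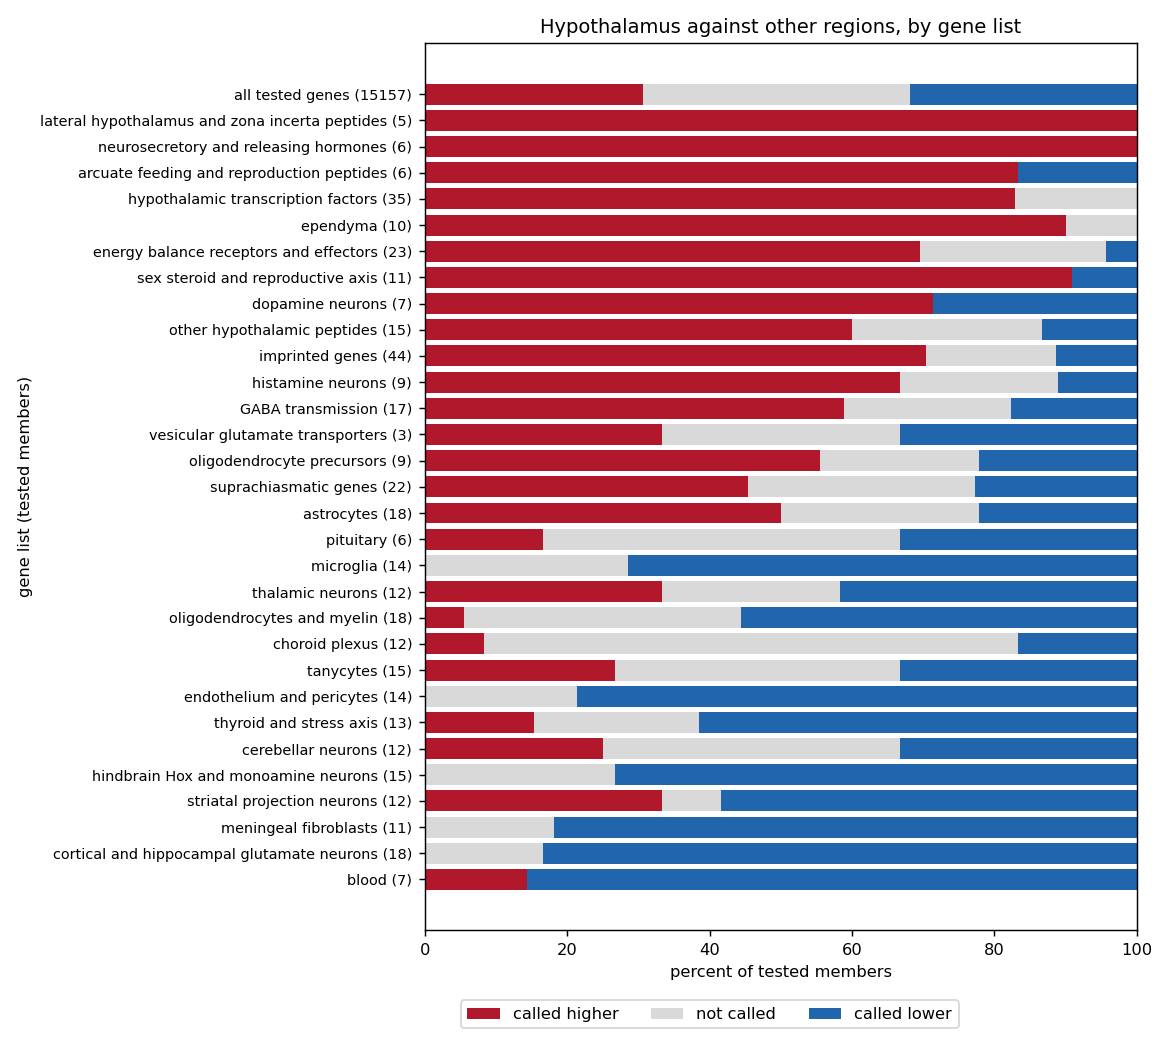
Share of tested members called higher (red), not called (grey) and called lower (blue) in the hypothalamus against other regions (limma adjusted p below 0.05) for 30 gene lists, ordered by median difference, with the number tested in brackets; the top bar gives all 15157 tested genes. All tested members of the lateral and neurosecretory peptide lists are red, and cortical neuron and blood markers are mostly blue.

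The hypothalamus was also set against single regions. Against the thalamus, its neighbour in the diencephalon, 8023 of 13745 genes were called (58.4%; 3786 higher and 4237 lower). Against the caudate putamen 9842 of 13872 were called (70.9%; 37% higher and 33.9% lower), and against the motor cortex 9219 of 13556 (68%; 35.4% higher and 32.6% lower). The 3 comparisons share the hypothalamus libraries. Plain library totals moved the median over all genes from -0.0048 to 0.12 in the thalamus comparison, from 0.028 to 0.17 in the caudate putamen comparison and from 0.026 to 0.16 in the motor cortex comparison, and the thalamus calls then split into 5456 higher and 3011 lower. The difference of Gal was 2.82 from thalamus, 7.72 from caudate putamen and 9.05 from motor cortex. Ghrh was higher than each of the 3, by 4.73, 5.53 and 5.42. The imprinted list kept its direction against thalamus, with 31 of 40 tested members called higher and 5 lower, where 27.5% of all genes were called higher and 30.8% lower. All 18 myelin markers, and 11 of 12 thalamic neuron markers, were lower than in thalamus, and none of either list higher. In all, 1814 genes were called higher and 1479 lower against the other regions together and against each of the 3.

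The 2 control cohorts did not differ detectably in how the hypothalamus stood apart. No gene of 15157 passed the test of PBS minus AL (limma, 0% called), and 271 had an unadjusted p below 0.05. The count was also 0 in every alternative run for this test. The error of this test was wide for peptides: for Hcrt the PBS minus AL difference was -3.52 ± 1.93 (SE), and for Oxt 0.92 ± 1.17, so that large differences could not have been detected. AL mice alone gave 7473 calls and PBS mice alone 5726.

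The treated mice, whose libraries were not used above, gave the same measure independently of the control libraries. In aDR and YMP mice 9035 of 15005 genes were called (60.2%). Of 14962 genes tested in both sets, 8007 were called in both, all with the same sign, which is 85.1% of the 9410 control calls and 88.8% of the 9018 treated calls among them. Pmch (10.61), Hcrt (10.04), Irs4 (6.07), Calcr (6.14), Gabrq (5.84), Magel2 (5.25) and Peg3 (1.49) were called higher there too, at these log2 differences. Oxt was 6.27 and Avp 4.85 higher, with single treated libraries as low as 0.206 CPM of Oxt and 0.619 CPM of Avp and as high as 637 and 684 CPM. The difference between control and treated mice was not tested. Crh and Npy were not called in treated mice (0.59 and -0.70, limma adjusted p = 0.139 and 0.289). Lhx8 was at -0.01 in treated mice (limma adjusted p = 0.98). Of 35 tested transcription factors 32 were called higher in treated mice, and of 44 imprinted genes 30 higher and 4 lower, where 31.1% of all genes were higher and 29.2% lower. The myelin list gave different counts: 10 of 18 markers were called lower and 1 higher in controls, and 0 lower and 1 higher in treated mice.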

How the data were processed

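RNA was measured in bulk tissue by Smart-Seq2 with Nextera XT libraries, an unstranded protocol, per the labels' protocols. The deposited table holds raw read counts per gene, with no normalisation, for 238 libraries. Trim Galore 0.3.7, STAR 2.5.3a, DESeq2 and the build GRCm38 are named in the submitters' processing notes, without roles. The counting program and annotation are not given in the sources used here. The control set comprised 92 libraries with totals of 1957388 to 32410417 counts.

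From the deposited counts, log2 CPM was computed with TMM scaling in edgeR 4.0.16 (prior count 2, in R 4.3.3), after its filter on low counts (minimum count 10, minimum total 15). The filter was grouped as hypothalamus against other regions, so a gene could pass on its hypothalamus libraries alone. Genes almost absent elsewhere, in any list, could therefore be called higher but not lower. The hypothalamus minus the mean of the other regions was taken per mouse and tested against 0 with limma 3.58.1, with Benjamini-Hochberg adjustment over 15157 genes and a call at 0.05. Printed CPM are counts per 1000000 of the TMM-scaled total, and a difference is on the log2(CPM + prior) scale, which understates changes of low genes. The pairing is by animal: the mouse number in the labels is the same animal in every region. Deviations of the hypothalamus from its group mean correlated with those of the same mouse's other regions by 0.116 on average (lowest -0.230, highest 0.457). With the other regions of other mice of the same cohort the average was -0.046. The variance trend was set on mean log2 CPM after the data were seen, since limma's default for a table of differences uses the mean difference. Alternatives used edgeR's quasi-likelihood test and DESeq2 1.42.0. On simulated data of 15157 genes, limma recovered 94% of changes of log2 size 1 and 99% of changes of log2 size 2, with 4 false calls. There, 100 genes changed at each size, and all other regions shared 1 mean. Simulated mice differed only by a shift common to all their regions, apart from random noise. The measured data have many more called genes and regions unlike each other, so these rates cannot be carried over to them.

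Named genes were the 12 highest and 12 lowest called genes with the same sign in all mice and a mean CPM of at least 1, and members of the lists, some of which are not reported here. Members and lists were chosen with earlier results of these data known. Gene positions and promoters are RefSeq's for GRCm38.p6, which held all 143 named genes. Of these, 20 overlap another counted gene, and reads there cannot be assigned by strand.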

Additional observations from a re-analysis of the deposited data

Results flagged for a closer look

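Of 143 named genes, 11 had 1 mouse whose difference between hypothalamus and other regions lay far from the other 6 (Dixon's test at 95%), which is 7.69%, where chance gives about 1 in 20. PBS 72 was the distant mouse in 9 of them, and the libraries of 1 mouse are shared by all 9.

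PBS 72 was low for peptide genes. Its log2 difference was 0.62 for Hcrt, against 8.87 to 12.04 in the other mice, 2.10 for Pmch, against 10.42 to 12.66, and 1.48 for the overlapping Parpbp, against 8.45 to 10.31. Pdyn was at 0.78 in PBS 72 and 2.54 to 3.46 in the others, and Adcyap1 at 1.32 against 2.84 to 3.92. For the transcription factor genes Fezf1 and Isl1 the same mouse was at 5.30, against 6.92 to 7.62, and 4.17, against 4.94 to 5.42. Hsd11b1 was at -2.14 in PBS 72 and -0.98 to -0.33 elsewhere. Rtn4rl2 was the reverse, at -1.08 in PBS 72 and -4.75 to -3.35 in the others.

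Outside PBS 72, Penk was at -0.83 in AL 63, the only mouse with a negative value, against 0.36 to 0.63. Peg3 was at 1.34 in AL 69 and 1.47 to 1.58 in the others, a small gap in a gene that hardly varied.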

How the results depend on the processing

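The count of called genes stayed within 1.5 times of that reported under every alternative run except PBS mice alone, a fit of 3 mice, which called 5726 genes. Leaving out 1 mouse at a time gave 8786 to 9319 calls against all other regions, 7247 to 7914 against thalamus, 9310 to 9614 against caudate putamen, 8669 to 9127 against motor cortex and 8201 to 8888 in treated mice. The test between cohorts called 0 genes throughout (267 to 491 with an unadjusted p below 0.05 when 1 mouse was left out). Alternatives that left out AL 63 and 66 or AL 66 and PBS 72, dropped the variance trend, or placed it over the mean difference were chosen after seeing the data, and the last gave 9330 calls. Under that default trend of limma 4 named genes with extreme differences lost their calls, with adjusted p of 0.0509 for Oxt, 0.0544 for Pmch, 0.147 for Gabrd and 0.988 for Slc17a7, at the same differences.

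With mouse as a block, edgeR called 9798 genes, and with no block 9436. The same pairing gave 7960 and 7353 against thalamus, 9782 and 9443 against caudate putamen, and 9198 and 8987 against motor cortex. Both edgeR fits left Asb11 and Emx1 uncalled.

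Plain library totals moved the share of higher genes among those called from 49.1% to 61.8% against all regions, 47.2% to 64.4% against thalamus, 52.2% to 65.3% against caudate putamen, 52.1% to 65.0% against motor cortex and 51.6% to 64.8% in treated mice.

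Of 3702 values of 143 named genes, 3637 kept sign and side of the threshold, 37 lost and 18 gained a call, and 10 changed sign. Vip became 0.23 over the 8 shared regions, 0.17 in PBS mice alone and 0.17 without AL 63 and 66. Lhx6 became -0.21 with the median of regions. Lmx1a ran from -0.0141 without AL 63 to 0.99 without PBS 80, and was -0.92 in PBS mice alone and -0.80 without AL 63 and 66. Lepr was -0.18 in PBS mice alone and -0.0195 without AL 63 and 66, and Gad1 was -0.0340 without AL 66 and PBS 72. The cause was not tested. None of these 5 genes was called by limma on all 7 mice. Depth limits genes near 3 counts per library.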
